A study of Arabidopsis thaliana with 6 samples.

Results

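Stomata are pores in the leaf epidermis, each bordered by a pair of guard cells, and their number is set while the leaf grows by secreted peptides, receptor kinases and a series of transcription factors. STOMAGEN is a cysteine-rich peptide that mesophyll cells secrete and that promotes stomatal formation in the epidermis above them, in competition with related peptides that restrict it. FAMA is a basic helix-loop-helix transcription factor of the last step of the lineage, in which a guard mother cell divides once and its daughters become guard cells. CR4, also called ACR4 and the Arabidopsis counterpart of maize CRINKLY4, is a receptor-like kinase of epidermal cell identity and of formative cell divisions in the root. GASA9 is a gene of the GASA family of small cysteine-rich secreted peptides, and its promoter is known for activity in guard cells.

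The transcripts of these 4 genes were followed in distal leaves of Arabidopsis thaliana after glycerol-3-phosphate (G3P) had been given to a primary leaf. Each gene was read by 1 probe set, taken where the probe set names that gene alone in the platform annotation: STOMAGEN (AT4G12970), FAMA (AT3G24140), CR4 (AT3G59420) and GASA9 (AT1G22690, which the annotation lists by its locus). They are 4 of the 16129 probe sets deposited, of which 8950 name a single gene, and 4 of the 8819 genes so named and found in RefSeq. How the deposited probe sets were chosen is not stated in the sources, so every share of probe sets below refers to that set. The genes were chosen by the G3P and mock signals of these same arrays, so their differences are given as a description without p-values. Plants were of the Columbia ecotype (Col-0), 3 to 4 weeks old, grown at 22 degrees C and 65% relative humidity with light for 14 h a day. In both groups a primary leaf was infiltrated with leaf exudate in MgCl2. The mock group received exudate alone and the G3P group exudate to which G3P had been added, and distal leaves were taken 24 h later. Each group had 3 biological replicates from separate sets of plants, each on its own Affymetrix ATH1 array. Whole leaves were profiled, so a smaller share of a cell type and less transcript per cell cannot be told apart in any of the values below.

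Signals are linear intensities as deposited, and differences are between group means of log2(signal + 16), a scale whose lowest value is 4. Array medians lay between 291 and 338. One array, G3P replicate 3, stood apart: across probe sets, which are not independent, its correlation with the others was 0.842 to 0.913, against 0.93 to 0.961 between the other 5. On it 609 probe sets lay more than 1 log2 unit above the range of the other arrays and 614 below it. The differences of the 4 genes, and of the listed genes measured beside them, are therefore given with and without it. Leaf tissue was recognisable by RCA, the activase of Rubisco, with signals of 8959 to 21317 on all 6 arrays. PYK10, a beta-glucosidase gene of root and seedling ER bodies, had signals of 8.56 to 92.2, the highest on G3P replicate 3. It was the 1 measured gene of 8 on the root and flower list. The log2 difference of PYK10 was 0.18 ± 0.62 (SE), and -0.26 without G3P replicate 3. Of all 16129 probe sets 0 (0%) passed limma after Benjamini-Hochberg adjustment at a threshold of 0.05, and 496 had an unadjusted p under 0.05, 181 higher and 315 lower. The rank-sum test of the study's design also gave 0, and 0.1 is the smallest exact two-sided p it allows with this number of arrays. None of the 4 genes passed.

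The peptide ligand STOMAGEN was low on a single array, in the G3P group. Its signals were 1642, 824 and 1122 on mock replicates 1, 2 and 3, and 1264, 907 and 122 on G3P replicates 1, 2 and 3. G3P replicates 1 and 2 lay inside the range of the mock arrays, and G3P replicate 3 lay far below all others, so the groups overlapped. On that array the median of the other 5 was 9.2 times its signal. On the log2 scale it lay 2.61 units below the lowest of the other arrays, a distance that 49 of the 16129 probe sets (0.304%) reached there.

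The group means of STOMAGEN on the log2 scale were 10.19 ± 0.49 for mock and 9.09 ± 1.73 for G3P (SD, n = 3 each). The difference, G3P minus mock, was -1.09 ± 0.76 (SE), and without G3P replicate 3 it was -0.10 ± 0.32. The spread of STOMAGEN within groups, a pooled SD of 1.28, was larger than that of 97.7% of probe sets. The highest of its 6 signals was 13.5 times the lowest.

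**Figure D1:**
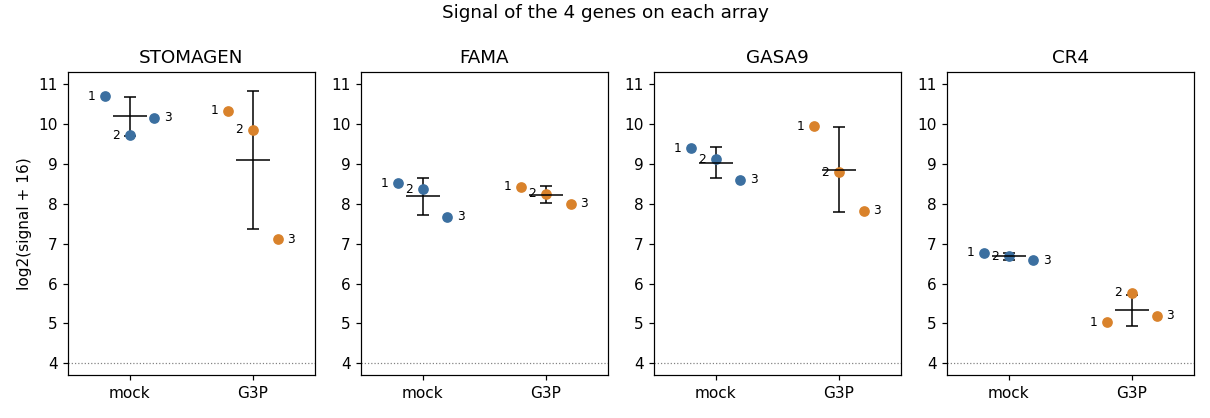
Level of STOMAGEN, FAMA, GASA9 and CR4 as log2(signal + 16) (vertical axis) in mock (blue) and G3P (orange) leaves; points are arrays numbered by replicate, horizontal lines are group means, bars are 1 SD (n = 3), and the dotted line at 4 is the lowest value the scale allows. STOMAGEN is low on G3P replicate 3 only, at 7.11, the G3P values of FAMA lie within its mock range, and CR4 is the gene whose groups do not overlap.

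Because mesophyll cells are the known source of STOMAGEN, mesophyll markers were set beside it. Of the 15 genes of the mesophyll list, 4 had a named probe set: RCA, the photosystem II antenna genes LHCB4.1 and LHCB4.2, and PSAN, a photosystem I subunit. Their summed signal was 81985 to 100703 on the mock arrays and 34741 to 79929 on the G3P arrays, the lowest being that of G3P replicate 3. On the other G3P arrays it was 78583 and 79929. Taken singly, each of the 4 genes had overlapping groups. The log2 difference was -0.55 ± 0.28 (SE) for RCA and -0.50 ± 0.31 for LHCB4.1. It was -0.65 ± 0.44 for LHCB4.2 and -0.65 ± 0.47 for PSAN. Without G3P replicate 3 the differences were -0.47 for RCA, -0.16 for LHCB4.1, -0.08 for LHCB4.2 and -0.05 for PSAN. None of the 4 was near 0 on any array. LHCB4.2 had signals of 27243, 21807 and 24685 on the mock arrays and 25116, 21416 and 7096 on the G3P arrays. PSAN, with 5490 on G3P replicate 3, stood at 16186 to 22737 elsewhere. LHCB4.1 had 11684 on that array and 23118 to 32166 elsewhere. These 3 genes were thus lowest on the array on which STOMAGEN was lowest. Their distances below the other arrays there were reached by 1.36% of probe sets for LHCB4.2, 1.48% for PSAN and 3.94% for LHCB4.1. RCA, lowest on G3P replicate 1 (8959), was below every mock array on G3P replicate 3 as well, at 10471 against 14827 to 21317. The vein marker SWEET11, a sucrose exporter of phloem parenchyma, pointed the other way on that array, with a signal of 12654 against 4582 to 6429 on the others. It was the 1 measured gene of 6 on the vein list. The log2 difference of SWEET11 was 0.24 ± 0.38 (SE), and -0.23 without G3P replicate 3. The part of these shifts in the STOMAGEN value was not tested.

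**Figure D2:**
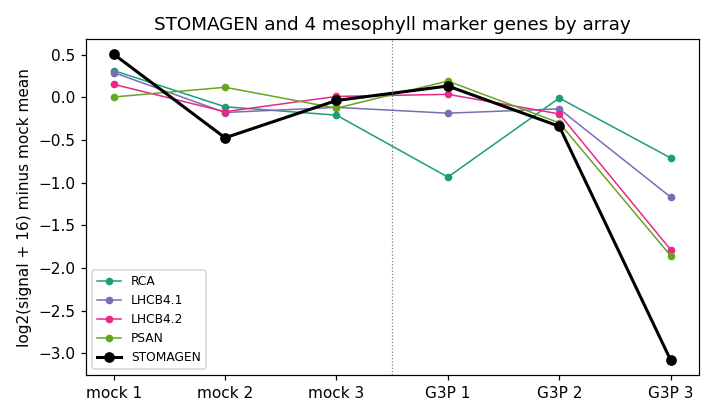
STOMAGEN (black) and 4 mesophyll marker genes on each array, as log2(signal + 16) minus the gene's own mean over the mock arrays; lines only join the values of 1 gene, and the dotted line separates mock from G3P arrays. On G3P replicate 3 all 5 genes lie below their mock means, STOMAGEN the farthest.

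The transcription factor FAMA had nearly the same level in both groups. Its signals were 350, 312 and 187 on the mock arrays and 326, 288 and 240 on the G3P arrays. All 3 G3P values lay within the mock range, and the lowest signal was that of mock replicate 3. The means on the log2 scale were 8.18 ± 0.45 for mock and 8.22 ± 0.21 for G3P (SD, n = 3 each), with a difference of 0.04 ± 0.29 (SE). G3P replicate 3 did not stand apart for FAMA, and without it the difference was 0.15 ± 0.31. The highest FAMA signal was 1.87 times the lowest. The direction of so small a difference turned when mock replicate 3 (-0.22) or G3P replicate 1 (-0.06) was left out.

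GASA9, the other gene with guard cell activity, varied more among the arrays of a group than between the groups. Its signals were 652, 535 and 371 on the mock arrays and 966, 426 and 210 on the G3P arrays. The G3P group held both the highest signal, on replicate 1, and the lowest, on replicate 3, so it spanned the mock range on either side. The group means on the log2 scale were 9.03 ± 0.40 and 8.85 ± 1.06 (SD, n = 3 each), and the difference was -0.18 ± 0.50 (SE). Without G3P replicate 3 the difference was 0.33 ± 0.38, and without G3P replicate 1 it was -0.73. On G3P replicate 3 GASA9 lay 0.78 log2 units below the other arrays, a distance that 5.88% of probe sets reached. FAMA, by contrast, kept within the range of the other arrays there.

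The receptor kinase CR4 was lower on all G3P arrays than on any mock array. Its signals were 93.5, 86.8 and 80.2 on the mock arrays and 16.8, 38.7 and 20.5 on the G3P arrays. The mock values lay close together and the groups did not overlap, with 0.82 log2 units between the lowest mock and the highest G3P array. Over all probe sets, groups did not overlap in this direction for 705 (4.37%), in the opposite direction for 688 (4.27%), and in either for 1393 (8.64%). The same separation held after quantile normalization, with a gap of 0.78, and after centring each array on its median, with a gap of 0.92. The log2 means were 6.68 ± 0.09 for mock and 5.33 ± 0.39 for G3P (SD, n = 3 each). G3P minus mock was -1.35 ± 0.34 (SE). A difference as low or lower was found for 117 probe sets (0.725%).

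CR4 did not follow G3P replicate 3 in the way STOMAGEN did. It was lowest on G3P replicate 1, and its difference without G3P replicate 3 was -1.28 ± 0.38. Neither the order of the groups nor the rank of the difference among all probe sets is a separate finding, because the genes were chosen by these signals. The size is uncertain as well, because the signals were dim. On the mock arrays 18.0% to 19.3% of the deposited probe sets were dimmer, and on the G3P arrays 3.07% to 8.04%. The median signal was 86.8 in mock and 20.5 in G3P leaves, a ratio of 4.24 without a pseudocount. On the log2 scale the difference was -1.83 with a pseudocount of 1 and -0.76 with 64. Detection calls were not used here, so it is not known whether the G3P signals were above background.

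**Figure D3:**
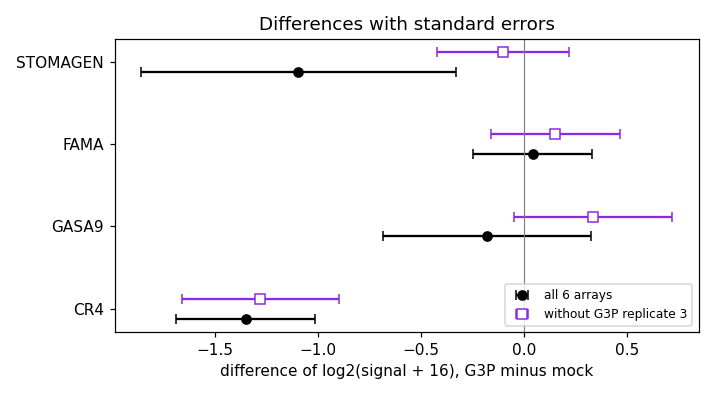
Difference of mean log2(signal + 16), G3P minus mock, for the 4 genes (horizontal axis), with all 6 arrays (filled circles) and without G3P replicate 3 (open squares); bars are 1 standard error from limma. CR4 stays at -1.35 and -1.28, STOMAGEN moves from -1.09 to -0.10, and GASA9 moves from -0.18 to 0.33.

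The 4 genes ordered the arrays differently. Mock replicate 1 was the highest for STOMAGEN, FAMA and CR4, and G3P replicate 1 for GASA9. The lowest was G3P replicate 3 for STOMAGEN and GASA9, mock replicate 3 for FAMA and G3P replicate 1 for CR4. Profiles were compared by the root mean square difference over the 6 arrays after each gene's own mean had been subtracted. FAMA and GASA9 were the closest pair among the 4, at 0.51 log2 units, and STOMAGEN and FAMA the farthest, at 1.10. STOMAGEN and GASA9 lay 0.75 apart, and CR4 lay 0.77 from FAMA, 0.93 from GASA9 and 1.03 from STOMAGEN. These distances over 6 arrays are descriptions.

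Among the 7912 probe sets of a single named gene with a mean log2 signal of at least 6, the nearest to STOMAGEN were AT3G48550 (0.24), AT5G22580 (0.25) and AT5G49170 (0.26), against a median distance of 1.19. AT5G22580 had signals of 3964 to 8281 on 5 arrays and 625 on G3P replicate 3, the same low array as for STOMAGEN. AT3G48550 had 73.5 to 174 on those 5 arrays and 7.06 on G3P replicate 3, near the lowest value of the scale. The distance of AT3G48550 was 0.34 with a pseudocount of 1 and 0.49 with 64. The nearest to FAMA were AT2G01220 (0.065), AT4G24630 (0.068) and AT5G05450 (0.073), against a median of 0.43, and all 3 were lowest on mock replicate 3. AT2G17300 (0.17), AT5G67460 (0.19) and AT2G36885 (0.20) were nearest to GASA9, where the median was 0.72. For CR4 the nearest was AT5G41100 at 0.14, followed by AT4G29440 (0.27) and AT5G23130 (0.27), against a median of 0.77. AT5G41100, whose groups did not overlap either, had signals of 187, 196 and 162 on the mock arrays and 50.9, 78.0 and 41.3 on the G3P arrays. These genes were chosen for their likeness, so the agreement of their profiles is no separate finding.

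**Figure D4:**
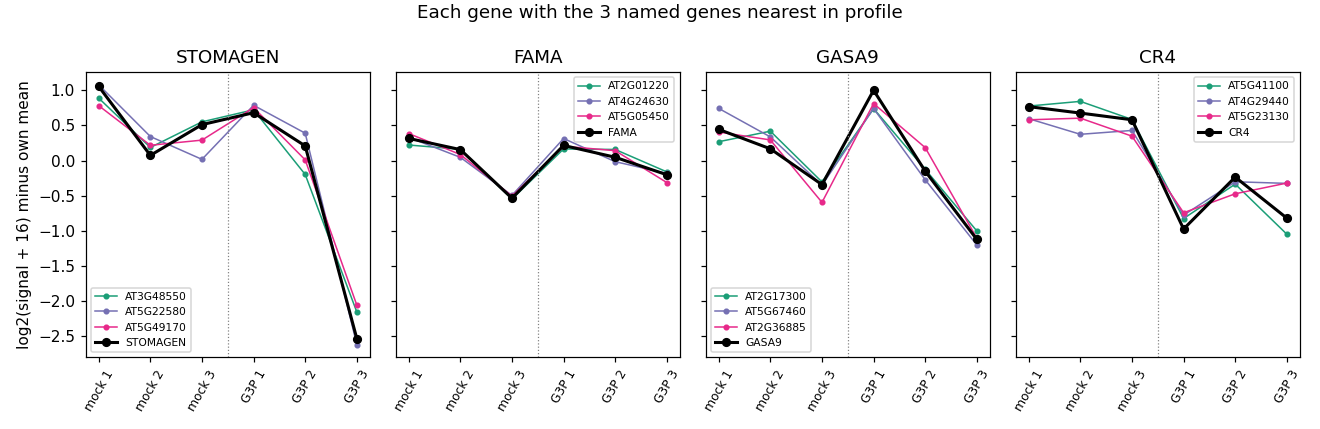
Profiles of each of the 4 genes (black) and the 3 named genes nearest to it (coloured) over the 6 arrays, as log2(signal + 16) minus each gene's own mean; lines only join the values of 1 gene, and the dotted line separates mock from G3P arrays. STOMAGEN and its nearest genes drop on G3P replicate 3, and CR4 and its nearest genes are lower on all 3 G3P arrays.

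Other genes of stomatal, epidermal and trichome development and of the GASA family were sparsely named. Of 117 such genes beside the 4, 10 had a named probe set, and 0 of the 10 passed the test across all probe sets in either direction (limma). A positive difference was found for 3 and a negative one for 7, and the median was -0.41. Over all probe sets 7497 differences were above 0 and 8632 below it, with a median of -0.03. No gene of the stomatal receptor and kinase cascade, stomatal polarity or cuticle lists was measured under a name, and the lists of lineage transcription factors and guard cell function held FAMA and GASA9 alone.

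Among the peptide genes and their protease, AT5G10310, listed as a gene of the same peptide family as STOMAGEN, had signals of 211, 166 and 162 on the mock arrays and 125, 146 and 117 on the G3P arrays. Its groups did not overlap, as was the case for 1 of the 10 genes, near the 8.64% of all probe sets. The log2 difference was -0.42 ± 0.24 (SE), and -0.36 without G3P replicate 3. ATSBT5.2, a subtilisin-like protease gene, had -0.40 ± 0.41, with overlapping groups. Its value on mock replicate 3, 182, was high against 46.9 to 106 elsewhere, and without that array the difference was -0.04. Leaving out G3P replicate 1 gave -0.12, G3P replicate 3 gave -0.60 and mock replicate 1 gave -0.62.

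In the epidermal list, GSO1, a receptor kinase with a role in the embryonic cuticle, had signals of 110, 85.6 and 58.2 in mock and 39.7, 77.8 and 33.7 in G3P leaves. The groups overlapped, and the log2 difference was -0.63 ± 0.38 (SE), and -0.45 without G3P replicate 3. CLE40, which encodes a peptide that acts with CR4 in the root tip, had signals of 0.806 to 22.6 on all arrays, near the lowest value of the scale, and a difference of 0.67 ± 0.46 whose size is uncertain. Leaving out G3P replicate 3 gave 0.71, and leaving out mock replicate 3 gave 0.44. Of the trichome genes, the cell cycle inhibitor gene SIM had 0.28 ± 0.28, the zinc finger gene GIS -0.30 ± 0.42 and the trichome repressor gene TRY 0.06 ± 0.36. The groups overlapped for all 3, and without G3P replicate 3 the differences of GIS and TRY turned to 0.01 and -0.15. That of SIM was 0.21 without the same array, and ran from 0.14 without mock replicate 1 to 0.50 without mock replicate 3.

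Of the other GASA family genes on the list, 3 were measured, and all 3 had negative differences with overlapping groups. AT2G14900 had -0.63 ± 0.48 (SE), AT5G59845 -0.51 ± 0.33 and AT2G39540 -0.47 ± 0.44. AT2G14900 resembled GASA9 in having its lowest signal, 98.0, on G3P replicate 3, against 250 to 449 on the other arrays, and its difference without that array was -0.09, and -1.05 without G3P replicate 1. Without G3P replicate 3 AT5G59845 had -0.48 and AT2G39540 -0.37. Mock arrays moved these more: without mock replicate 1 they had -0.32 and -0.21, and without mock replicate 3 AT2G39540 had -0.88.

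**Figure D5:**
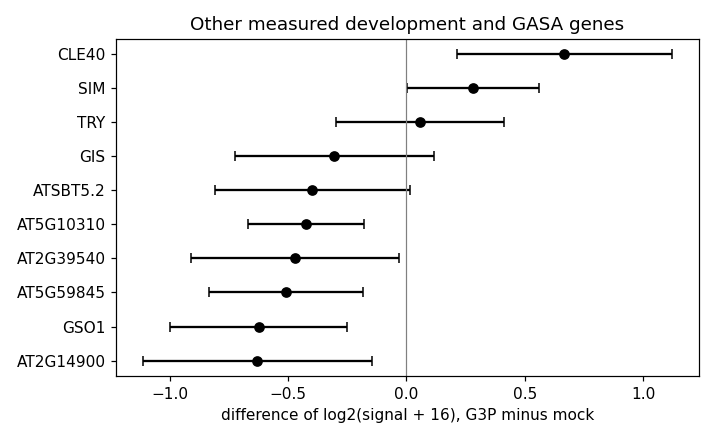
Difference of mean log2(signal + 16), G3P minus mock (horizontal axis), of the 10 other measured genes on the development and GASA lists; points are differences from all 6 arrays and bars are 1 standard error from limma. The differences run from -0.63 for AT2G14900 to 0.67 for CLE40, and none passed the test across all probe sets.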

How the data were processed

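Transcripts in distal leaves were measured on 6 ATH1 arrays, which are read in 1 colour. The authors deposited linear intensities, 1 for each probe set on each array, made with Affymetrix Expression Console 1.0 per the submitters' processing notes. How probes were summarized, arrays scaled and the listed probe sets chosen is not stated in the sources. The 2% trimmed means of the arrays were 747 to 754. Groups came from the sample labels, and no 2 arrays were identical. Genes were named through the platform annotation and RefSeq (TAIR10.1), which matched 8911 of the 8950 single-gene probe sets. Coordinates are left out because the files name no build.

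The 2 groups were contrasted on log2(signal + 16) over all 16129 probe sets by limma 3.58.1 (R 4.3.3), using lmFit and eBayes with a variance trend and Benjamini-Hochberg adjustment. Differences of dim probe sets are understated by the pseudocount of 16. The fit was tested on simulated data. The number of arrays limits precision.

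The 4 genes and the 12 gene lists were chosen with earlier results of these data known. From each list up to 3 measured genes with the smallest unadjusted p were named, and for each of the 4 genes the 3 nearest profiles; PSAN was named after its values were seen. Alternatives were the replicate block, pseudocounts of 1 and 64, quantile normalization, centring, leaving out the dimmest 25% or 50%, no variance trend, array quality weights, the rank-sum test, the ratio of medians and each array left out.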

Additional observations from a re-analysis of the deposited data

How the results depend on the processing

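Counts past the adjusted threshold were 0 under every alternative run, single arrays left out included; the rank-sum test could give no call. The count with an unadjusted limma p under 0.05 was 496 with all arrays and probe sets, 227 of the 8065 left without the dimmest 50%, and 233 (without mock replicate 1) to 1196 (without G3P replicate 2). CR4 was -1.22 after quantile normalization, -1.31 after centring, -2.08 as the log2 ratio of medians and from -1.57 to -1.20 with 1 array left out; since its groups do not overlap, only the first 2 could have turned its direction. It was left out with the dimmest 25%. STOMAGEN ran from -1.71 (without G3P replicate 1) to -0.10 with 1 array left out, -0.37 with array quality weights and -0.31 as the log2 ratio of medians. FAMA turned to -0.11 as that ratio and ran from -0.22 to 0.21 with 1 array left out. GASA9 turned to 0.022 with array quality weights and ran from -0.73 to 0.33. Single genes also turned: with array quality weights GIS (0.040), TRY (-0.013) and SWEET11 (-0.025); with 1 array left out the ranges were -0.54 to 0.087 for GIS, -0.15 to 0.28 for TRY, -0.23 to 0.50 for SWEET11 and -0.36 to 0.60 for PYK10. The order of the nearest profiles also depended on the processing. With a pseudocount of 64 AT4G29440 (0.097) and AT5G23130 (0.13) were nearer to CR4 than AT5G41100 (0.15). With a pseudocount of 1 AT5G49170 (0.19) was nearer to STOMAGEN than AT3G48550 (0.34). After quantile normalization AT5G67460 (0.12) was nearer to GASA9 than AT2G17300 (0.19). The causes were not tested.

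With a replicate block in the fit, 0 probe sets passed the threshold and 685 had an unadjusted p under 0.05. With equal groups the block cannot move a difference; the SE went from 0.34 to 0.36 for CR4 (-1.35) and from 0.76 to 0.60 for STOMAGEN (-1.09). Deviations of same-numbered arrays correlated at 0.0061, -0.10 and 0.31. Those of differently numbered arrays ran from -0.37 (mock replicate 3 with G3P replicate 2) to 0.45 (mock replicate 1 with G3P replicate 2). The numbers therefore do not show that samples are paired. Quantile normalization and centring moved the median of all differences from -0.03 to 0.01.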
